A study of Mus musculus with 6 samples.

Results

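Sgk1 and 7 further genes that glucocorticoid hormone is known to act on or through were followed across the cells of the small intestinal mucosa. They were chosen by gene symbol, with results of the same comparison already known, as Sgk1, Fkbp5, Tsc22d3, Klf9, Zbtb16, Nr3c1, Ddit4 and Errfi1, which are 8 of the 32285 genes counted. The data are 6 droplet libraries of single cells, each from 1 mouse. There were 3 control littermates (HuR fl/fl, Cre-negative, labelled wild-type) and 3 IE-HuR-/- mice, in which villin-Cre deletes the floxed HuR gene (Elavl1) in the intestinal epithelium alone, so that immune and stromal cells of both groups carry the intact floxed gene. All mice were young, age- and gender-matched and on the C57BL/6 background, and mucosal cells were released with EDTA and trypsin. The methods describe food deprivation with free access to water before experiments, whereas the label of the libraries states normal feeding, and the hour of tissue collection is not given in the sources used here.

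Glucocorticoid hormone crosses the cell membrane and binds the glucocorticoid receptor, encoded by Nr3c1, which moves to the nucleus and binds DNA at a palindromic glucocorticoid response element. Sgk1 encodes a serum- and glucocorticoid-regulated kinase that raises sodium transport in epithelia and acts downstream of PI3-kinase and mTORC2. Fkbp5 encodes a co-chaperone that lowers the receptor's affinity for the hormone, Tsc22d3 encodes the anti-inflammatory leucine zipper protein GILZ, and Klf9 and Zbtb16 encode zinc finger transcription factors. Ddit4 encodes REDD1, an inhibitor of mTORC1 that is also induced by hypoxia and nutrient stress, and Errfi1 encodes MIG6, a feedback inhibitor of the EGF receptor. None of these RNAs reports the hormone alone, since stress, growth factors, feeding and the daily clock act on several of them.

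The response element was looked for in the RefSeq windows from 250 bases before to 50 bases after each transcription start (GRCm38.p6). Binding of the receptor to such an element is the textbook route to induction, and elements further from the start were not looked for. Sgk1 lies on chromosome 10 at 21882184 to 21999903 (+ strand). Windows were found for 6 of the 8 genes, 14 in all, of which 6 were for alternative starts of Sgk1. On both strands, the hexamer AGAACA, one arm of the element, was in 4 of the 14 windows and in 19.0% of the 32851 windows of all genes. The full palindrome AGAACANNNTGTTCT, which contains the hexamer on each strand, was in 1 of the 14 windows, belonging to Sgk1, and in 3 of all 32851. The letters CACGTG, an E box that clock factors can bind, were in 2 of the 14 windows (that same Sgk1 window, where they overlap a hexamer match, and the Fkbp5 window) and in 7.15% of all windows. The hexamer was in 3 of the 6 Sgk1 windows and in 1 of the 3 Tsc22d3 windows. None of the windows of Fkbp5, Klf9, Ddit4 and Errfi1 held it, while Fkbp5 and Klf9 differed with the sign of Sgk1. The 4 windows shown have any hexamer, on either strand, in capitals. They are the Sgk1 window with the palindrome, which starts 189 bases before the transcription start, and the Sgk1 window furthest downstream. The others are the only Tsc22d3 window with the hexamer and the Ddit4 window, for a gene whose difference had the opposite sign.
Sgk1, + strand, chr10:21993640-21993939: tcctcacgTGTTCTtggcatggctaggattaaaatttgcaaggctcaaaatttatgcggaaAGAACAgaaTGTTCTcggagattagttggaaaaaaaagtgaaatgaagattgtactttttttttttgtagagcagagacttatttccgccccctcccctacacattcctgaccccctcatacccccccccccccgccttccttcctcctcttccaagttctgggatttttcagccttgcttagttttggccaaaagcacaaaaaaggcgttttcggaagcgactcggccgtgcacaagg
Sgk1, + strand, chr10:21994416-21994715: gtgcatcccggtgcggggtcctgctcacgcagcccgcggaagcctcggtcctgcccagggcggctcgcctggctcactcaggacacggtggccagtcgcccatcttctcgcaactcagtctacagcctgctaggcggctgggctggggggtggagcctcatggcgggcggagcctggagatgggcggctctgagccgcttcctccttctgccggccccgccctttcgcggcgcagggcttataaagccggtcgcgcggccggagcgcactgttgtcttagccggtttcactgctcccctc
Tsc22d3, - strand, chrX:140600473-140600772: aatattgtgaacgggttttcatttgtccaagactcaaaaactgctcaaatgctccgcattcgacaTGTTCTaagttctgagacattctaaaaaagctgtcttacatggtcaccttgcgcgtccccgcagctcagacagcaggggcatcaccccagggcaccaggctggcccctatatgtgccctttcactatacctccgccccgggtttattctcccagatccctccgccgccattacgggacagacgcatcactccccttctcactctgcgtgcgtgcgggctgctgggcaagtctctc
Ddit4, - strand, chr10:59951721-59952020: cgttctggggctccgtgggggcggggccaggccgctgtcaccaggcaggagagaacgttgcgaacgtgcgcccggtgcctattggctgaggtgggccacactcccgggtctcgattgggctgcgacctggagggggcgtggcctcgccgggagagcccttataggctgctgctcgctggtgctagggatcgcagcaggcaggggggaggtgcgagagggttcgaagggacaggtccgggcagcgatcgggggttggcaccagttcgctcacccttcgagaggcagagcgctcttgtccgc
A match of letters is a description of the window and says nothing of binding in these cells, and the windows without capitals only lack these letters over 300 bases.

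The protein that the deletion removes binds AU-rich stretches in the 3′ UTR of RNAs. In the longest annotated 3′ UTR (GENCODE M21), the pentamer AUUUA occurred 10 times in Nr3c1, 8 times in Klf9, 4 times in Errfi1, 3 times in Sgk1, 2 times in Fkbp5 and 1 time in Tsc22d3, and it was not found in Zbtb16 or Ddit4. Over 21472 genes the median was 1 pentamer, and 93.3% of the genes had fewer than Nr3c1 and 89.7% fewer than Klf9. These counts are not scaled by length, and the 3′ UTRs of Nr3c1 (3940 bases) and Klf9 (3225 bases) exceeded the median of 928 bases. Per kilobase, Errfi1 had 2.87, Sgk1 2.78, Nr3c1 2.54, Klf9 2.48, Fkbp5 1.02 and Tsc22d3 0.745 pentamers, beside a median of 1.16. Both genes without the pentamer therefore fell among the 36.5% of genes that hold none.

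The 6 libraries held 60706 barcodes with at least 500 UMIs (molecules counted by their unique identifiers) and 428980031 UMIs, between 59518012 and 91818560 per library. Of the distinct barcodes, 0.722% occurred in 2 or more libraries. Cells were assigned to 12 classes by their marker RNAs, which placed 22549 cells, from 34 Paneth-like to 12314 enterocyte-like cells, and left 37546 cells with a median of 1047 UMIs unassigned. Every listed marker of a class was higher in that class than in the other classes together. The same markers had set the gates, so this is no independent check of the classes. UMIs were summed per class and library, and a level is given as CPM, the UMIs of a gene per 1000000 UMIs of that sum. Elavl1 itself was not lower in the enterocyte-like cells of the deleted animals (27.8, 29.9 and 27.7 CPM in the control libraries and 28.4, 28.5 and 29.6 CPM in the IE-HuR-/- libraries), and whether the counted reads fall in the deleted part of the gene is not known here, so control and IE-HuR-/- below mean the libraries labelled so.

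The genes differed most between classes in where they were found. Sgk1 was highest in enterocyte-like cells, at 97.0 ± 44.3 CPM (SD, n = 6 libraries), followed by goblet-like cells at 66.0 ± 35.6 CPM, and these neighbours in the order overlapped in range although enterocyte-like cells were higher within every library. Next came fibroblast-like (52.7 ± 36.3 CPM), enteroendocrine-like (41.6 ± 26.3 CPM) and myeloid-like cells (27.9 ± 15.2 CPM). The fibroblast-like and myeloid-like values rest on 57 and 38 UMIs of Sgk1 over all libraries. All SDs span control and IE-HuR-/- libraries. T or NK-like cells, at 12.5 ± 6.61 CPM, lay next to erythroid-like cells at 11.1 ± 8.79 CPM, and crypt progenitor-like cells were lowest at 8.08 ± 4.005 CPM.

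Fkbp5 had a different distribution. It was highest in T or NK-like cells at 86.3 ± 7.01 CPM, above the next class (tuft-like, 38.1 ± 11.2 CPM) in 6 of 6 libraries with no overlap in range, and it was at 1.79 ± 1.08 CPM in goblet-like and 1.62 ± 0.469 CPM in enterocyte-like cells. These last levels were near the low end. The T cell markers reached between 0.122% and 0.232% of their T or NK-like level in enterocyte-like cells, against between 1.20% and 2.56% for Fkbp5. Those markers define T or NK-like cells, and enterocyte-like cells had to fail that gate, so the gates set this order in part. The part of T cell RNA in the Fkbp5 of enterocyte-like cells was not tested. Tsc22d3 was highest in B or plasma-like cells at 129 ± 64.5 CPM, ahead of myeloid-like (96.8 ± 50.5 CPM) and plasmacytoid dendritic-like cells (86.4 ± 12.2 CPM), with overlap between each of these neighbours.

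Klf9 was highest in fibroblast-like cells at 184 ± 27.4 CPM and next in tuft-like cells at 114 ± 13.7 CPM, without overlap in range. Nr3c1, the receptor, was spread widely, from 140 ± 55.9 CPM in fibroblast-like, 133 ± 45.9 CPM in enteroendocrine-like and 125 ± 20.8 CPM in enterocyte-like cells to 17.3 ± 8.72 CPM in erythroid-like cells. Errfi1 was highest in enteroendocrine-like (131 ± 27.4 CPM), goblet-like (115 ± 24.2 CPM) and enterocyte-like cells (97.7 ± 17.9 CPM), and the last of these did not overlap with T or NK-like cells (68.3 ± 6.29 CPM). Ddit4 was highest in T or NK-like cells at 41.5 ± 4.22 CPM and stood at 8.90 ± 4.25 CPM in enterocyte-like cells. Zbtb16 was low everywhere, with 20.1 ± 20.2 CPM in the 91 fibroblast-like cells and 4.47 ± 1.19 CPM in T or NK-like cells, and it had no UMI in 7 of the 12 classes.

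**Figure D1:**
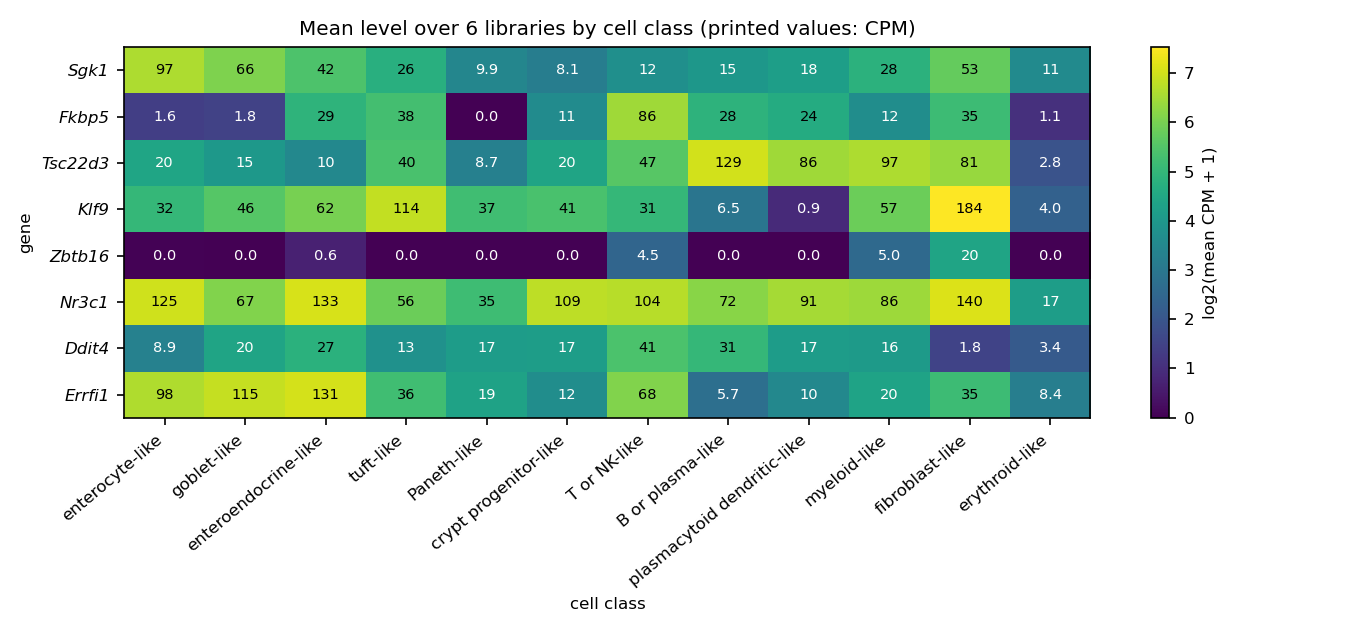
Mean level in CPM over 6 libraries of the 8 genes (rows) in 12 cell classes (columns), coloured by log2(mean CPM + 1) with the mean printed in each cell. Sgk1 was highest in enterocyte-like cells (97.0 CPM) and Fkbp5 in T or NK-like cells (86.3 CPM).

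In enterocyte-like cells, the absorptive cells of the villus, Sgk1 was lower in the IE-HuR-/- libraries, at 0.412 times the mean of the control libraries. The control libraries had 138, 136 and 138 CPM and the IE-HuR-/- libraries 55.5, 58.8 and 55.5 CPM, on between 2045 and 7843 UMIs of Sgk1 per library. All 3 control values lay far above all 3 values of the other group. The log2 fold change, IE-HuR-/- minus control, was -1.09 with a standard error of 0.0445 in edgeR's quasi-likelihood fit, which scales the libraries by TMM so that the typical RNA has no change. Since the genes were picked with this contrast known, their differences are given as a description without p-values. By immunoblot of small intestinal mucosa, the paper reports SGK protein as unchanged in IE-HuR-/- mice. The values here are of RNA in enterocyte-like cells and say nothing of the protein.

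Tsc22d3 lay at 26.4, 27.0 and 27.6 CPM in the control and 12.1, 13.7 and 15.5 CPM in the IE-HuR-/- enterocyte-like cells, a log2 fold change of -0.78 ± 0.0640 (standard error). Fkbp5 had 1.91, 2.25 and 1.84 CPM against 1.49, 0.961 and 1.28 CPM, on between 40 and 130 UMIs per library, with a log2 fold change of -0.51 ± 0.168. The groups did not overlap for either gene. Fkbp5 missed the threshold used below with DESeq2 (-0.49) and when control replicate 2 (-0.41) or IE-HuR-/- replicate 2 (-0.35) was left out.

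Klf9 and the receptor gene Nr3c1 were lower by smaller amounts. Klf9 was at 35.9, 37.1 and 34.0 CPM in the control and 27.1, 27.5 and 28.0 CPM in the IE-HuR-/- libraries, with a log2 fold change of -0.18 ± 0.0513, and Nr3c1 was at 151, 142 and 138 CPM against 103, 108 and 108 CPM, with -0.24 ± 0.0439. The fitted changes of these genes are smaller than the CPM show, because without TMM the median of all RNAs moved to -0.21 on the log2 scale.

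Ddit4 and Errfi1, the inhibitors of mTORC1 and of the EGF receptor, went the other way. Ddit4 was at 5.07, 5.08 and 5.05 CPM in the control and 12.2, 13.9 and 12.1 CPM in the IE-HuR-/- libraries, a log2 fold change of 1.52 ± 0.0759. Errfi1 was at 81.2, 84.1 and 80.9 CPM against 109, 122 and 109 CPM, a log2 fold change of 0.66 ± 0.0480. No control library reached the lowest IE-HuR-/- library for either gene. Zbtb16 had between 1 and 4 UMIs per library and was not tested.

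Of the 8 genes, 7 were tested in enterocyte-like cells and all 7 had an edgeR adjusted p under 0.05, with 5 lower and 2 higher. Of all 12377 RNAs tested there, 59.8% passed the same threshold, 3665 higher and 3742 lower, and nothing is read from the count of the chosen genes. The CPM of the groups did not overlap for any of the 7, nor for 68.6% of all RNAs tested. Without TMM the calls were 1839 higher and 6224 lower, while each of the 7 genes kept its direction. Ordered by absolute log2 fold change, 92.4% of the RNAs tested changed less than Sgk1, 96.5% less than Ddit4, 85.8% less than Tsc22d3 and 34.9% less than Klf9.

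**Figure D2:**
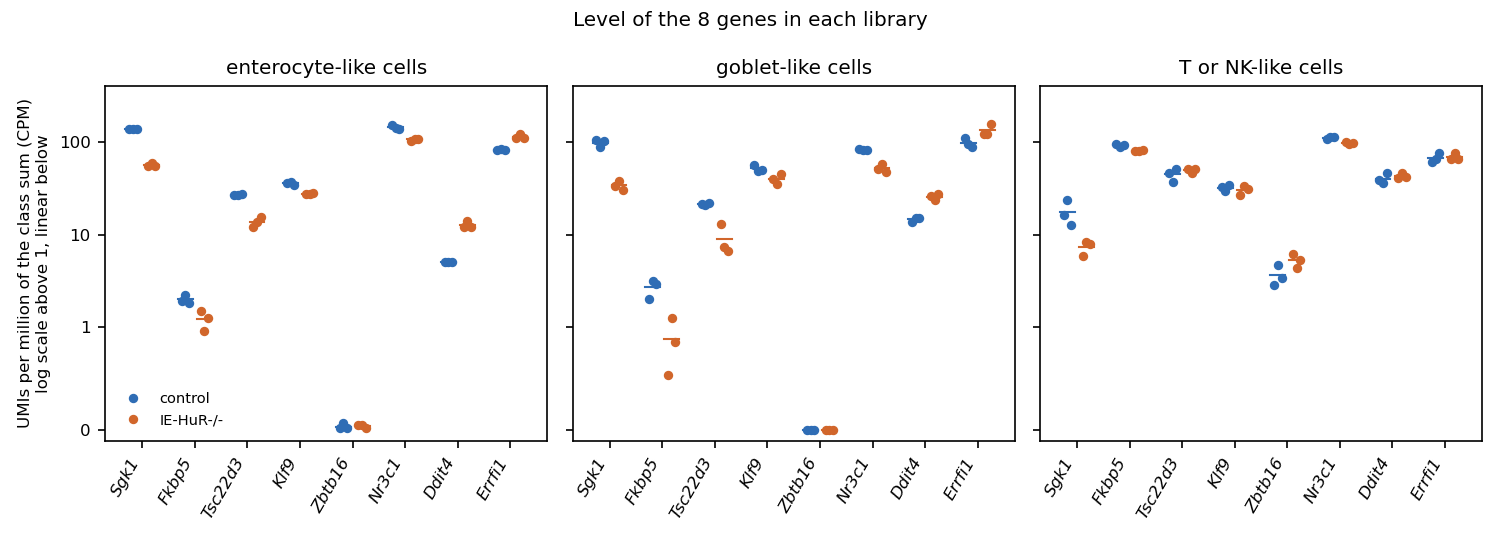
Level in CPM of each gene (vertical axis, logarithmic above 1 and linear below) in the 3 control and the 3 IE-HuR-/- libraries, with 1 point per library and a line at the mean, in 3 cell classes. In enterocyte-like cells Sgk1 lay at 136 to 138 CPM in control and 55.5 to 58.8 CPM in IE-HuR-/- libraries.

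Position along the villus was followed by dividing the enterocyte-like cells of each library into 3 bins of equal cell number by the share of UMIs from 7 villus tip RNAs. That measure itself differed between the labels, from 4529 to 5036 CPM in the control and from 6108 to 6723 CPM in the IE-HuR-/- libraries, so that equal bins are not equal positions. Sgk1 was lower in every bin. In the lower bin it had 115, 108 and 120 CPM in the control and 38.6, 40.8 and 39.3 CPM in the IE-HuR-/- libraries, and in the upper bin 151, 153 and 146 CPM against 67.9, 73.8 and 69.3 CPM. The log2 fold change was -1.40 ± 0.0618 in the lower, -1.09 ± 0.0525 in the middle and -0.85 ± 0.0519 in the upper bin.

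Tsc22d3 and Ddit4 had their largest differences at the upper end instead. Tsc22d3 differed by -0.45 ± 0.0866 in the lower, -0.89 ± 0.0835 in the middle and -1.42 ± 0.109 in the upper bin, where the control libraries had 17.4, 20.9 and 20.2 CPM and the IE-HuR-/- libraries 5.64, 5.94 and 6.73 CPM. Ddit4 differed by 0.48 ± 0.203, 1.41 ± 0.160 and 1.79 ± 0.0856 from the lower to the upper bin, and in the upper bin it was at 9.67, 9.91 and 9.37 CPM in the control against 26.5, 30.1 and 27.9 CPM in the IE-HuR-/- libraries. In the lower bin the Ddit4 values of the groups overlapped.

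Klf9 had log2 fold changes near 0 in the lower (-0.03 ± 0.0821) and middle bins (-0.01 ± 0.0682) and was lower in the upper bin (-0.48 ± 0.0664), with 43.1, 44.0 and 40.2 CPM in the control against 26.6, 25.1 and 25.5 CPM in the IE-HuR-/- libraries. Nr3c1 had nearly the same difference in all bins, from -0.27 to -0.21. Errfi1 stood higher toward the tip under both labels, at 37.0, 37.9 and 33.5 CPM in the lower and 140, 148 and 145 CPM in the upper bin of the control libraries, and at 45.6, 48.4 and 40.9 CPM and 194, 212 and 195 CPM in those of the IE-HuR-/- libraries. Fkbp5 was lower in the lower bin (-0.91 ± 0.242) and higher in the upper bin (0.54 ± 0.361), the latter on between 9 and 18 UMIs per library with overlapping groups. Whether the differences of a gene themselves differed between bins was not tested.

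**Figure D3:**
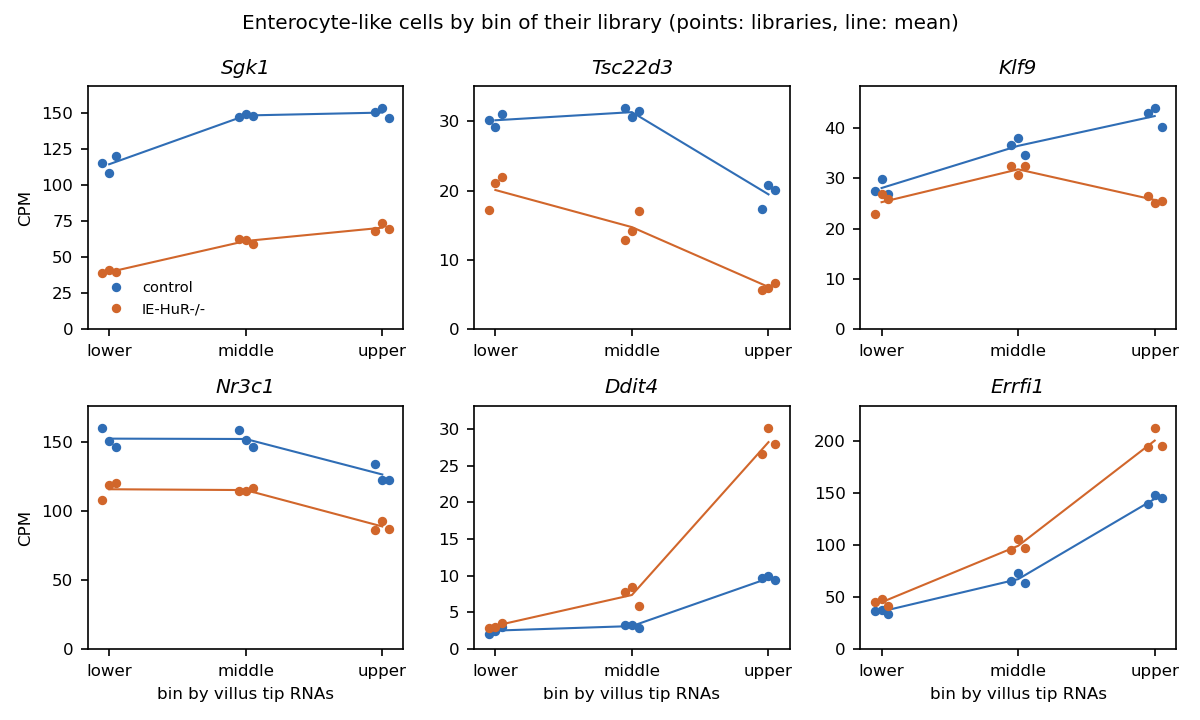
Level in CPM (vertical axis) of 6 genes in enterocyte-like cells of the lower, middle and upper bin of each library by villus tip RNAs, with 1 point per library and lines through the group means. The gap of Sgk1 is present in each bin, while those of Ddit4 and Klf9 are widest in the upper bin.

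Goblet-like cells, the mucus-secreting cells, had the same directions. Sgk1 lay at 105, 88.3 and 101 CPM in the control and 33.4, 38.0 and 30.4 CPM in the IE-HuR-/- libraries, with a log2 fold change of -1.34 ± 0.110. Tsc22d3 lay at 21.3, 20.9 and 21.8 CPM against 12.9, 7.28 and 6.60 CPM, with -1.04 ± 0.199, and 1 of the IE-HuR-/- libraries stood well above the other two. Nr3c1 had 83.7, 81.4 and 82.4 CPM against 50.4, 57.3 and 47.3 CPM, with -0.49 ± 0.101. Ddit4 had 13.6, 14.96 and 15.1 CPM against 25.9, 23.4 and 27.5 CPM, with 1.01 ± 0.148, and Errfi1 109, 95.8 and 88.5 CPM against 122, 121 and 157 CPM, with 0.64 ± 0.115. In each of these genes the groups did not overlap, as was the case for 46.9% of the RNAs tested in goblet-like cells. Klf9 had -0.17 ± 0.118 and did not pass the threshold, but did without TMM (-0.36). Of the 8 genes 6 were tested and 5 passed, in a class where 27.4% of 9039 RNAs passed (1372 higher and 1102 lower, or 746 higher and 2358 lower without TMM). The genes were chosen with this contrast known, so nothing is read from their count. The 13 enterocyte markers, all detected in these goblet-like cells, summed to between 40519 and 41883 CPM in the control and between 26441 and 35419 CPM in the IE-HuR-/- libraries, lower without overlap and thus in the direction of Sgk1, Tsc22d3 and Nr3c1. Their part in the values was not tested.

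In the rarer epithelial classes the UMIs were few and no count model was fitted. In enteroendocrine-like cells Sgk1 was at 76.4, 52.6 and 61.4 CPM in the control and 5.92, 27.3 and 25.8 CPM in the IE-HuR-/- libraries, and in tuft-like cells at 53.9, 54.5 and 29.4 CPM against 0, 15.4 and 2.38 CPM, without overlap in either class. The 0 stands for no UMI of 300918, which allows up to 9.97 CPM (3 UMIs, counting error only). Enterocyte markers stood at between 20.6% and 42.0% of their enterocyte-like level in enteroendocrine-like and between 35.8% and 59.5% in tuft-like cells. Sgk1 stood at between 10.7% and 55.3% and between 0% and 40.1% of its own. The part of enterocyte RNA in the Sgk1 values of these classes was not tested. Nr3c1 in enteroendocrine-like cells was at 163, 134 and 204 CPM against 121, 85.4 and 87.0 CPM, also without overlap. The share of all RNAs without overlap was not determined in enteroendocrine-like or tuft-like cells, so nothing is read from the lack of overlap there. Fkbp5 in tuft-like cells had 23.3, 29.1 and 35.3 CPM in the control and 39.9, 49.0 and 52.3 CPM in the IE-HuR-/- libraries. These values rest on between 12 and 35 UMIs of Fkbp5 per library. In crypt progenitor-like cells, the class nearest to the stem cells, Klf9 (-0.28 ± 0.352) and Nr3c1 (0.01 ± 0.231) were tested and neither passed, where 0.301% of 4988 RNAs did, and Sgk1 had between 2 and 5 UMIs per library.

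T or NK-like cells are not a target of villin-Cre. The groups of 5 of the 8 genes overlapped there and those of 3 did not, where the groups of 22% of the RNAs tested did not overlap. Fkbp5, at its highest level in the tissue, had 95.5, 88.0 and 93.4 CPM in the control and 79.6, 79.9 and 81.6 CPM in the IE-HuR-/- libraries, and its log2 fold change of -0.22 ± 0.0683 did not pass the threshold although the groups did not overlap. The same held for Nr3c1, with 108, 112 and 112 CPM against 100, 94.1 and 96.9 CPM and -0.22 ± 0.0655. Without control replicate 3 both passed, at -0.23. Tsc22d3 (0.13 ± 0.102), Klf9 (-0.08 ± 0.110), Zbtb16 (0.47 ± 0.282), Ddit4 (0.08 ± 0.101) and Errfi1 (0.01 ± 0.0912) had overlapping groups. Ddit4 was thus at 38.4, 35.9 and 46.1 CPM in control and 40.5, 46.6 and 41.3 CPM in IE-HuR-/- T or NK-like cells. All 8 genes were tested in this class and 1, Sgk1, passed, where 4.5% of 11398 RNAs did. Here too nothing is read from the count of the chosen genes.

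The Sgk1 counts of T or NK-like cells were 16.4, 23.6 and 12.6 CPM in the control and 5.92, 8.40 and 7.99 CPM in the IE-HuR-/- libraries, with a log2 fold change of -1.27 ± 0.244. The gene no longer passed without control replicate 1 (-1.33) or without any 1 of the IE-HuR-/- libraries (between -1.37 and -1.14). Free RNA from lysed enterocytes can enter any droplet, and enterocyte markers in T or NK-like cells stood at between 5.12% and 11.7% of their enterocyte-like level, and Sgk1 at between 9.10% and 17.3% of its own. Erythroid-like cells, red cells that should hold little Sgk1 RNA of their own, had 17.0, 25 and 10.2 CPM in the control and 8.81, 5.74 and 0 CPM in the IE-HuR-/- libraries. When cells were thinned to 3000 UMIs, an Sgk1 UMI was found in between 2.79% and 6.34% of T or NK-like cells and between 2.65% and 7.14% of erythroid-like cells of the control libraries, and in between 2.00% and 2.56% and between 0% and 2.67% of those of the IE-HuR-/- libraries. The 0% stands for none of 75 cells, which allows a share of up to 4%. Before thinning the shares were between 5.87% and 9.54% in T or NK-like and between 5.88% and 10.5% in erythroid-like cells of the control libraries (median depths between 4100.5 and 5398 and between 3844.5 and 5254 UMIs). In the IE-HuR-/- libraries they were between 2.76% and 4.198% and between 0% and 3.48%. Thinning left out 521 control and 444 IE-HuR-/- T or NK-like cells, and 331 and 128 erythroid-like cells. Relative to enterocyte-like cells of the same library, the Sgk1 level of T or NK-like cells was above that of the enterocyte markers in 6 of 6 libraries and above that of Sgk1 in erythroid-like cells in 3 of 6. The gates hold the enterocyte markers of T or NK-like cells down, so they set the count of 6 in part. How much of it came from free RNA was not tested, and neither expression of Sgk1 in T or NK-like cells nor a difference there is drawn from these counts.

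In enterocyte-like cells, by contrast, an Sgk1 UMI was found after thinning to 3000 UMIs in between 27.5% and 27.7% of the cells of the control libraries and between 12.5% and 13.5% of those of the IE-HuR-/- libraries, and before thinning in between 65.1% and 70.5% and between 45.5% and 49.2%. Within T or NK-like cells, those with a Trdc UMI (gamma-delta T cells) had Fkbp5 at 104, 95.1 and 96.9 CPM in the control and 92.9, 88.1 and 98.0 CPM in the IE-HuR-/- libraries, and those with Cd8a but no Trdc or Cd4 UMI had 70.3, 72.1 and 87.8 CPM against 61.7, 71.0 and 61.0 CPM. Both subsets overlapped between the labels. In myeloid-like cells Tsc22d3 (-0.31 ± 0.410), Klf9 (-1.05 ± 0.451) and Nr3c1 (-0.75 ± 0.354) were tested and none passed, where 1.21% of 3380 RNAs did.

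**Figure D4:**
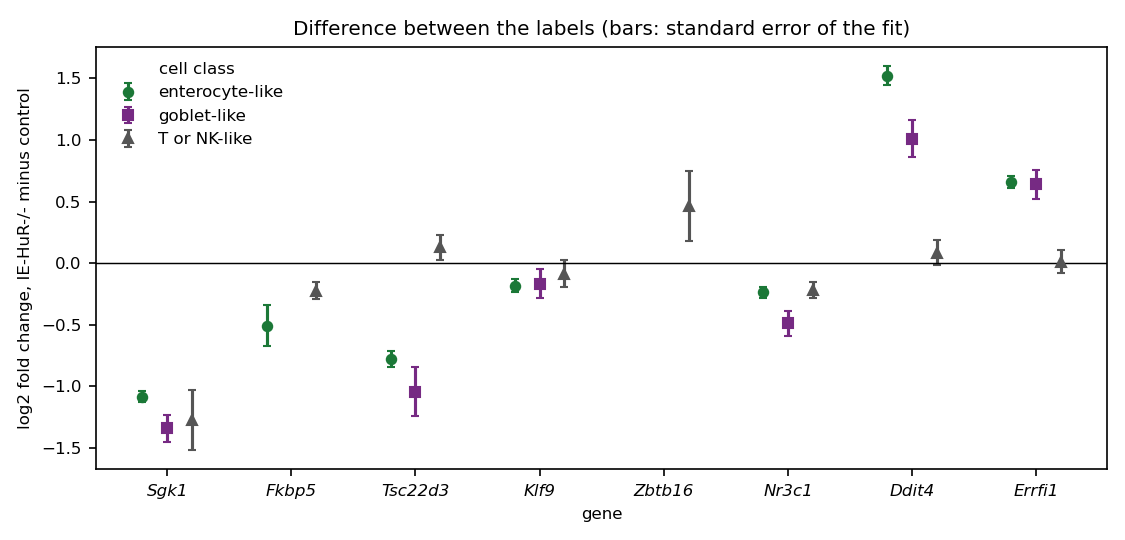
Log2 fold change of each tested gene, IE-HuR-/- minus control (vertical axis), with the standard error of the fit as bars, in enterocyte-like, goblet-like and T or NK-like cells. Sgk1 had negative values in all 3 classes, whereas Tsc22d3 and Ddit4 differed from 0 by more than 2 standard errors only in the epithelial ones.

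Whether Sgk1 moved with the other genes was examined first over the 56 class-by-library sums of at least 20 cells. As a description, Pearson's r of log2(CPM + 1) with Sgk1 was 0.51 for Nr3c1, 0.47 for Errfi1, 0.36 for Klf9, 0.10 for Tsc22d3, 0.10 for Zbtb16, -0.20 for Fkbp5 and -0.25 for Ddit4. The sums share libraries, depth and free enterocyte RNA, and most of their variation lies between classes. Among 5928 RNAs with a mean of at least 20 CPM, Nr3c1 ranked 926th in likeness to Sgk1. The 5 most like it were Selenop (r = 0.79), Dhrs1 (0.78), Fmo5 (0.78), Cyp3a11 (0.78) and Cyp2b10 (0.77).

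Within a library, cells with an Sgk1 UMI were compared with cells without one, each thinned to 5000 UMIs in enterocyte-like cells. The log2 ratio of CPM + 5 was above 0 for Nr3c1 in 5 of 6 libraries (median 0.13, from -0.13 to 0.24), for Ddit4 in 5 of 6 (median 0.23, from -0.25 to 0.89) and for Klf9 in 5 of 6 (median 0.06). It was above 0 for Tsc22d3 in 4 of 6 libraries, for Errfi1 in 3 of 6 and for Fkbp5 in 2 of 6. Within the lower, middle and upper bins it was above 0 for Nr3c1 in 5 of 6 libraries each (medians 0.22, 0.16 and 0.088). It was above 0 for Tsc22d3 in 4, 6 and 4, for Klf9 in 3, 1 and 3 and for Ddit4 in 3, 2 and 5. For Fkbp5 it was so in 6, 1 and 4 and for Errfi1 in 2, 2 and 1. Counted above the median ratio of RNAs with at least 20 CPM instead, Klf9 had 4 of 6 libraries over all cells. In the bins Klf9 then had 3, 0 and 3, Nr3c1 5, 5 and 4, and Tsc22d3 4, 5 and 4. The other counts given here stayed the same. Over these genes and bins the ratios lay between -0.83 and 1.01, and such sparse counts carry no finding about single cells.

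**Figure D5:**
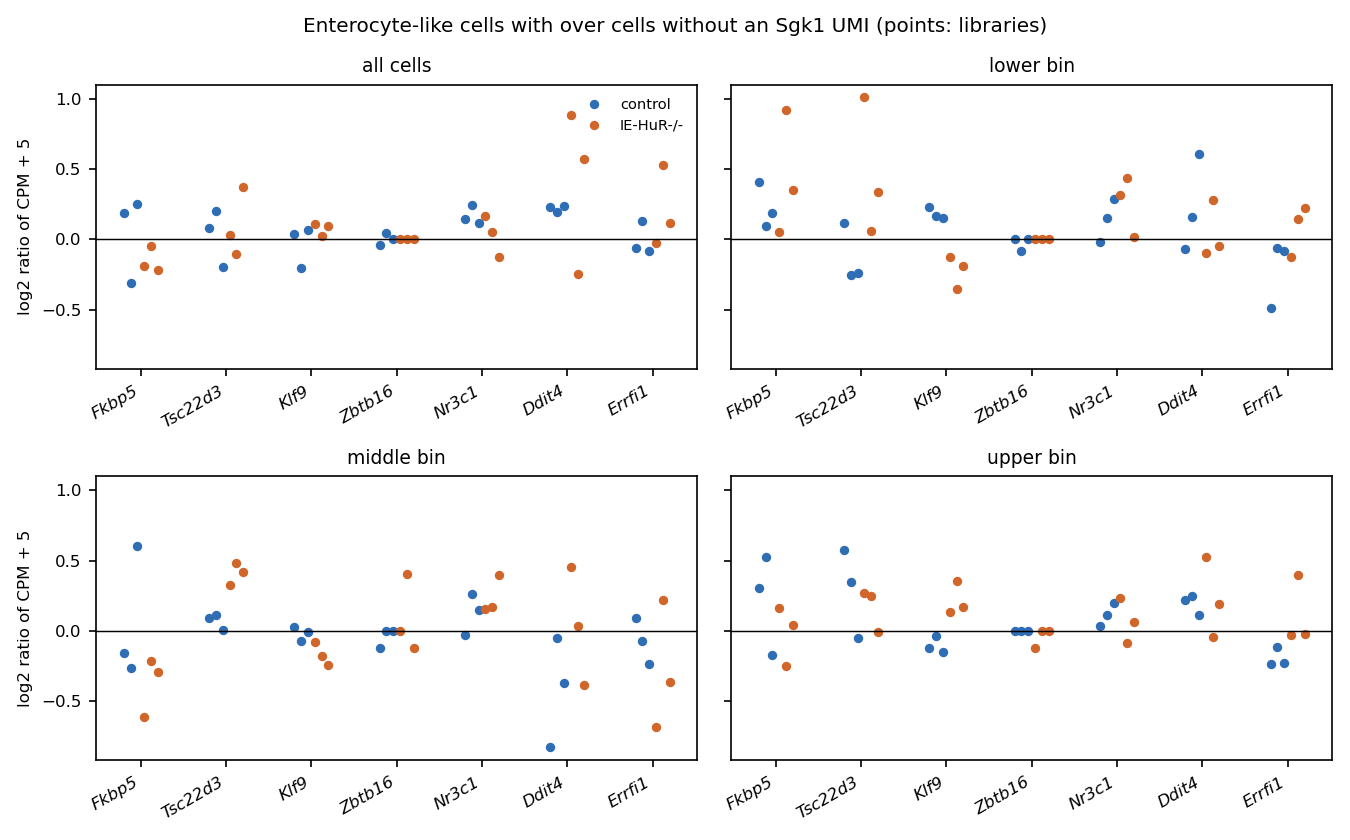
Log2 ratio of CPM + 5 between cells with and cells without an Sgk1 UMI (vertical axis) for the other 7 genes, with 1 point per library, in all enterocyte-like cells thinned to 5000 UMIs and in each bin by villus tip RNAs. Points of most genes lie on both sides of 0, and those of Nr3c1 are above 0 in 5 of 6 libraries in each panel.

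Other genes that glucocorticoids are known to induce moved in both directions in enterocyte-like cells. Of 37 listed, 33 were tested, 17 rose and 9 fell (12 and 12 without TMM), with a median log2 fold change of 0.13 beside -0.02 for all RNAs, of which 59.8% passed. The lists described below are to be set against that same share in enterocyte-like cells and against 27.4% in goblet-like, 4.5% in T or NK-like, 1.21% in myeloid-like and 0.301% in crypt progenitor-like cells. All lists were chosen with earlier results of these data known, and the genes named are those of largest change. Their adjusted p-values describe the fit and are not independent evidence. The largest changes were those of Tat, a liver-type tyrosine aminotransferase (5.37 ± 0.336, edgeR adjusted p = 4.79e-15, from 0.0399 to 1.53 CPM), Mt1, a metallothionein that zinc also induces (3.62 ± 0.0944, adjusted p = 1.27e-09, from 191 to 2050 CPM), Il7r, the interleukin 7 receptor (3.09 ± 0.409, adjusted p = 2.60e-07, from 0.0991 to 0.745 CPM), and Tgm2, transglutaminase 2 (2.57 ± 0.0603, adjusted p = 2.34e-26, from 10.3 to 53.6 CPM). Tat and Il7r rest on few molecules there, between 2 and 69 and between 4 and 49 UMIs per library. Il7r was far higher in T or NK-like cells, where its mean also rose, from 10.7 CPM in the control to 75.5 CPM in the IE-HuR-/- libraries. The part of RNA from those cells in the Il7r of enterocyte-like cells was not tested. In goblet-like cells 10 of 30 tested rose and 6 fell (10 and 8 without TMM), among them Mt1 (4.04 ± 0.124, adjusted p = 7.44e-17) and Tgm2 (2.66 ± 0.286, adjusted p = 8.10e-05).

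In T or NK-like cells 4 of 28 tested genes of that list rose and 2 fell. Il7r, which lymphocytes use for survival signals, rose from 10.7 to 75.5 CPM (2.83 ± 0.129, edgeR adjusted p = 9.27e-10), and Mt1 rose (2.11 ± 0.135, adjusted p = 7.05e-05). The make-up of the class moved with the label. Cells with a Trdc UMI were between 62.5% and 68.5% of it in the control and between 50.8% and 53.4% in the IE-HuR-/- libraries, and cells with a Cd4 but no Trdc or Cd8a UMI were 10, 5 and 6 against 57, 48 and 50. Within cells with a Trdc UMI, Il7r was at 5.04, 7.60 and 7.93 CPM in the control and 24.3, 28.6 and 26.2 CPM in the IE-HuR-/- libraries, and within those with Cd8a but no Trdc or Cd4 UMI at 11.4, 11.4 and 32.8 CPM against 85.1, 89.0 and 92.0 CPM, without overlap in either subset. The Mt1 level of T or NK-like cells was between 7.71% and 24.2% of that of enterocyte-like cells in the same library. The enterocyte markers, which the gates hold down, were at between 5.12% and 11.7%. The part of enterocyte RNA in the Mt1 of T or NK-like cells was not tested. Il7r stood at between 6148% and 19570% of its enterocyte level. Both genes that fell, Pck1 (-1.75 ± 0.266, adjusted p = 0.00710) and Usp2 (-1.22 ± 0.264, adjusted p = 0.0136), were at between 9.43% and 20.03% and between 5.30% and 13.1% of their enterocyte level, and missed the threshold without IE-HuR-/- replicate 1 (-1.72 and -1.01) or 2 (-1.63 and -1.30), and Usp2 also without control replicate 1 (-1.17). In myeloid-like cells 2 of 13 rose and 1 fell, and in crypt progenitor-like cells 1 of 12, Mt2, fell (-1.48 ± 0.272, adjusted p = 0.0142), a call lost without control replicate 3 (-1.23) or any 1 of the IE-HuR-/- libraries (between -1.60 and -1.41). Of 11 genes that glucocorticoids repress, 4 were tested in enterocyte-like cells, where 2 rose and 1 fell, the chemokine gene Cxcl10 (-2.55 ± 0.120, adjusted p = 1.46e-17). Cxcl2, 1 of those that rose, missed the threshold with DESeq2 (0.88), without TMM (0.67), and in 4 of the 6 fits that leave out 1 library (control replicates 2 and 3, IE-HuR-/- replicates 1 and 3, between 0.47 and 0.93). In T or NK-like cells 1 of 5 tested rose, Tnf (1.48 ± 0.277, adjusted p = 0.00496), and in myeloid-like cells 1 of 4, the chemokine gene Cxcl2 (4.68 ± 0.463, adjusted p = 0.000179). The myeloid-like class held between 22 and 78 cells per library. Its median depths were 3867, 3007 and 2096.5 UMIs in the control and 1468, 1627.5 and 1721 UMIs in the IE-HuR-/- libraries. Whether the make-up of the class moved with the label was not tested.

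Of 13 tested genes of the receptor's chaperones, cofactors and steroid metabolism, 5 rose and 2 fell in enterocyte-like cells (1 and 7 without TMM), with a median of 0.07, where 59.8% of all RNAs passed. Hsp90aa1, a chaperone of the unliganded receptor, rose (0.56 ± 0.0428, edgeR adjusted p = 8.50e-13), and Nr5a2, which drives local steroid synthesis in the intestine, fell (-0.54 ± 0.126, adjusted p = 0.000492). In goblet-like cells 1 of 11 rose and 1 fell (1 and 2 without TMM). None of 12 tested passed in T or NK-like cells.

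Among 18 tested genes of kinases, targets and transporters around Sgk1, 5 rose and 8 fell in enterocyte-like cells (1 and 12 without TMM), with a median of -0.09, again where 59.8% of all RNAs passed. The largest changes were falls of Kcnq1, a potassium channel that SGK1 can activate (-1.33 ± 0.313, edgeR adjusted p = 0.000527), Ndrg1, whose protein SGK1 phosphorylates (-0.80 ± 0.0590, adjusted p = 3.05e-13), Nedd4, a ubiquitin ligase (-0.66 ± 0.104, adjusted p = 2.17e-06), and Sgk3, a related kinase (-0.64 ± 0.0754, adjusted p = 9.25e-09). Kcnq1 was low in enterocyte-like cells, at a mean of 0.746 CPM in the control and 0.264 CPM in the IE-HuR-/- libraries. In crypt progenitor-like cells its means were 59.4 and 34.1 CPM. The part of RNA from other cells in the Kcnq1 of enterocyte-like cells was not tested. In goblet-like cells 5 of 17 fell and none rose (7 lower without TMM). Of 6 tested genes of the response to osmotic stress, which can also induce Sgk1, 4 rose and 1 fell in enterocyte-like cells (2 and 1 without TMM), led by the water and glycerol channel gene Aqp3 (0.52 ± 0.0491, adjusted p = 1.00e-10).

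Beside Ddit4, the mTORC1 genes were split, with 3 of 10 higher and 4 lower in enterocyte-like cells (1 and 6 without TMM), where 59.8% of all RNAs passed. Deptor, an inhibitor of mTOR, fell (-1.47 ± 0.0745, edgeR adjusted p = 2.11e-17), and Eif4ebp1, a translation repressor that mTORC1 inactivates, rose (0.80 ± 0.0669, adjusted p = 1.04e-11). Of 8 tested genes of the integrated stress response, which can induce Ddit4, 4 rose and 1 fell (4 and 2 without TMM), a count near that share, including Asns, asparagine synthetase (1.03 ± 0.130, adjusted p = 4.37e-08), Ppp1r15a (1.01 ± 0.0753, adjusted p = 4.04e-13) and the factor Atf4 (0.62 ± 0.0457, adjusted p = 2.63e-13). Beside Errfi1, 6 of 9 tested genes of EGF receptor signalling rose and 1 fell (3 and 2 without TMM), with the receptor gene Egfr (1.20 ± 0.0563, adjusted p = 2.62e-17) and the MAP kinase phosphatase Dusp6 (1.18 ± 0.0460, adjusted p = 1.97e-20) at the top. In the bins of the enterocyte-like cells fitted alone, Ndrg1 (-0.089), Asns (0.097) and Aqp3 (-0.010) did not pass in the upper bin, and Egfr (0.23), Eif4ebp1 (0.17) and Nr5a2 (-0.34) did not pass in the lower bin. In goblet-like cells 1 of 10 mTORC1 genes rose and 3 fell (1 and 6 without TMM), 5 of 10 stress response genes rose (5 and 1 lower without TMM), and 4 of 9 EGF receptor genes rose and 1 fell. In T or NK-like cells 0 of 10 mTORC1, 1 of 7 stress response and 1 of 8 EGF receptor genes passed.

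Genes that rise when tissue is dissociated were mostly higher in the enterocyte-like and goblet-like cells of the IE-HuR-/- libraries. In enterocyte-like cells 14 of 16 were higher and 1 lower (10 and 2 without TMM), with a median of 0.68 and beside 59.8% of all RNAs passing, with Egr1 (1.64 ± 0.0520, edgeR adjusted p = 9.77e-23) and Hspa1a (1.48 ± 0.0984, adjusted p = 4.76e-14) in front, and in goblet-like cells 11 of 14 were higher and none lower (8 and 2 without TMM). In T or NK-like cells from the same suspensions none of 14 was higher and 2 were lower, Jun (-0.39 ± 0.0730, adjusted p = 0.00512) and Fos (-0.31 ± 0.0738, adjusted p = 0.0218). Jun missed the threshold without IE-HuR-/- replicate 2 (-0.36) or 3 (-0.39), Fos without any 1 of the IE-HuR-/- libraries (between -0.36 and -0.25) and with DESeq2 (-0.32). In crypt progenitor-like cells none of 9 tested passed, with a median of 0.09, where 0.301% of all RNAs did. The part of dissociation in the values of Sgk1, Ddit4 and Errfi1 was not tested.

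Glucocorticoids and feeding both set the daily clock. In enterocyte-like cells 4 of 16 clock genes were higher and 11 lower (3 and 12 without TMM), with a median of -0.47 and beside 59.8% of all RNAs passing, with Hlf (-2.46 ± 0.114, edgeR adjusted p = 1.95e-18), Dbp (-1.54 ± 0.0539, adjusted p = 1.37e-21), Per2 (-1.52 ± 0.0826, adjusted p = 1.32e-16) and Per3 (-1.12 ± 0.0821, adjusted p = 2.51e-13) lower, and in goblet-like cells 2 of 14 were higher and 6 lower (2 and 9 without TMM). In T or NK-like cells none of 15 passed. The part of the clock or of feeding in the lower Sgk1, Tsc22d3, Klf9 and Fkbp5 of the IE-HuR-/- enterocyte-like cells was not tested.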

How the data were processed

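The members and all gene lists were chosen with earlier results of these data known. For each of the 6 libraries the authors deposited a matrix of raw UMI counts, made with CellRanger 6.1.2 per the file headers. The methods name another version and a human reference, the submitters' processing notes name mm10, and the labels name a 5′ kit where the methods name a 3′ kit. Barcodes with at least 200 genes were kept (60431 of 60706). Cells were assigned by marker gates whose thresholds were set after the files had been seen, with at least 5000 UMIs for enterocyte-like and 1000 for other classes. No doublet caller was run, and 336 mixed cells were left out. A cell was mixed if it passed several gates, those of enterocytes and crypt progenitors aside. It was also mixed if it passed a non-epithelial gate and held at least 3% of its UMIs in enterocyte markers. UMIs were summed per class and library and tested by edgeR's robust quasi-likelihood method after TMM scaling (edgeR 4.0.16, R 4.3.3), keeping RNAs that filterByExpr passes at a count of 10 and a total of 15, and calling those with a Benjamini-Hochberg adjusted p under 0.05. DESeq2 1.42.0 was an alternative, and the test was checked on simulated counts. The libraries are the replicates, 3 per label. Chi-square per degree of freedom between libraries of 1 label was between 5.07 and 14.2, so none was a copy. Named genes were the 8 members, Elavl1, at most the 4 called genes of largest change per list and class, and the 5 RNAs most correlated with Sgk1. A listed gene that is counted in its list is not reported here by itself. Promoter windows came from RefSeq and gene models from GENCODE M21. Intervals and zero limits cover counting error only.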

Additional observations from a re-analysis of the deposited data

How the results depend on the processing

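The log2 fold change of Sgk1 in enterocyte-like cells kept its sign under all 18 alternatives, at -1.28 without TMM, -1.40 in the lower and -0.85 in the upper villus bin, between -1.12 and -1.06 with 1 library left out, and -1.09 with at least 1000 UMIs per cell, an alternative chosen after seeing the data. The number of RNAs called changed by over 1.5 times in the lower bin of enterocyte-like cells (4492) and without a filter on low counts in T or NK-like (1057), myeloid-like (142) and crypt progenitor-like cells (47). It was 3 in crypt progenitor-like cells without the top 5% of cells by UMIs and 24 in myeloid-like cells with doubled marker thresholds. With 1 library left out it lay between 192 and 1455 in T or NK-like, 13 and 69 in myeloid-like and 5 and 26 in crypt progenitor-like cells, and the highest T or NK-like count came without control replicate 3. The replicate numbers did not pair the libraries (r of their deviations 0.11, -0.13 and 0.08 for equal numbers). With the replicate block the Sgk1 value was -1.09 and the calls were 7523 in enterocyte-like, 2458 in goblet-like, 406 in T or NK-like, 14 in crypt progenitor-like and 82 in myeloid-like cells. Fkbp5 changed sign in the upper bin (0.54). The 85 named values of listed genes gave 1328 values under the alternatives, of which 1208 kept sign and call, 116 lost the call and 4 changed sign. Ereg (0.12) changed sign in the lower, Nos2 (-0.0053) in the middle and Stip1 (-0.20) and Aqp3 (-0.010) in the upper bin. The causes were not tested.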
